A study of Homo sapiens with 6 samples.

Results

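The 44 genes described here encode the machinery that brings new proteins into the endoplasmic reticulum (ER) and carries them to the Golgi apparatus. They were taken by name, as known parts of this machinery, from a count table of 60604 genes and fall into 6 roles. The roles are the signal recognition particle (SRP) and its receptor (8 genes), the SEC61 translocon (5), the translocon-associated protein (TRAP) complex (4), the COPII coat with its cargo and fusion partners (12), the TMED cargo receptors (7) and the COPI coat (8). RNA was sequenced from MIA PaCa-2 cells, a wild-type (by label) and long-established line from a human carcinoma of the pancreas. A first group of 3 libraries came from cells given BP at 12.5 µg/ml. The other 3 libraries came from cells given the same BP dose plus Huaier, a preparation of a medicinal fungus, at 10 mg/ml. The labels do not spell out BP. Every library is thus from BP-treated cells of 1 line, cells without BP were not analysed here, and the duration of treatment was not stated in the sources used here. The comparison asks how these genes' transcripts responded to Huaier on top of BP. Nothing in the labels says that libraries of a group were separate cultures, so p-values speak only for the spread among these 6 libraries, part or all of which may be technical.

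In the secretory pathway, SRP binds the signal sequence of a protein that is still being made and docks the ribosome at the SRP receptor on the ER membrane. The chain then passes through the SEC61 channel, which the TRAP complex accompanies. Folded cargo leaves the ER in COPII vesicles. The GTPase SAR1 starts this coat, SEC23 and SEC24 form its inner layer and pick the cargo, and SEC13 and SEC31 form the outer cage. TMED proteins (the p24 family) help load cargo, and COPI vesicles return escaped ER proteins and receptors from the Golgi. Pancreatic exocrine cells are known for a heavy secretory load, and carcinoma lines such as this one keep the general machinery.

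The libraries held between 15657593 and 17036565 counts on genes. Values are CPM, read counts scaled to a common library total with factors from the trimmed mean of M-values (TMM), and compare 1 gene between libraries. BP+Huaier 3 stood apart from BP+Huaier 1 and 2: across genes, pairs of libraries that included it differed by 49.7 and 74.1 times the sampling variance, against 16.1 for BP+Huaier 1 and 2 and 3.74 to 10.0 for pairs of BP libraries. Of 6 markers listed for a carcinoma line, the keratins KRT8, KRT18 and KRT19 were abundant, while the epithelial genes KRT7 and EPCAM were near 0. VIM, which is not an epithelial marker, was the most abundant. The summed CPM of these 6 was 5043 to 5217 in BP and 4670 to 6723 in BP+Huaier, most of it VIM, while KRT18 rose 1.71-fold and KRT19 2.05-fold (edgeR adjusted p = 0.0368 and 0.0173). Other cell types were at low levels. The summed CPM of 4 immune markers was 41.1 to 45.8 in BP and 21.6 to 34.3 in BP+Huaier, nearly all from CD14, with PTPRC and CD3E at 0. The 3 endothelial markers summed to 17.6 to 21.1 and 11.9 to 14.7 CPM, mostly CDH5, and the 3 fibroblast markers to 8.13 to 8.74 and 12.3 to 13.97 CPM, with DCN at 0. CDH5 fell by a factor of 1.49 (edgeR adjusted p = 0.0298) and COL1A1 rose from 1.34 to 5.92 CPM on average (edgeR adjusted p = 8.87e-04). The part of these marker changes in the results below was not tested. The acinar genes PRSS1 and CELA3A and the islet genes INS and GCG were at 0 in all libraries.

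All 44 genes passed the filter on low counts, and most had small fitted changes when Huaier was added. Those fits average BP+Huaier libraries that did not deviate alike. BP+Huaier 1 lay inside the BP range for 3 of the 44 genes, BP+Huaier 2 for 6 and BP+Huaier 3 for 17. SRPRA, SSR2, SEC24D, SEC13, TMED5 and COPG1 rose by 1.39 to 1.56 times, SEC22B fell by a factor of 1.46, and the other 37 did not pass the test (edgeR quasi-likelihood test, adjusted p under 0.05 over all 15022 genes tested). The 7 called genes are 15.9% of the 44, against 29.3% called among all genes tested. By direction, 13.6% were higher, against 14.4% of all genes, and 2.27% were lower, against 15%. The median absolute log2 fold change was 0.21 in the 44 genes and 0.43 in all genes. Among 8767 protein-coding genes within the same range of CPM it was 0.35, and 29.6% of those genes were called. The largest absolute log2 fold change in the set was 0.64, and the median standard error was 0.15. For 12 genes every BP+Huaier library was above every BP library, and for 2 it was below. Of all genes tested, 21.9% were separated upward and 24.9% downward, 46.8% in all.

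**Figure D1:**
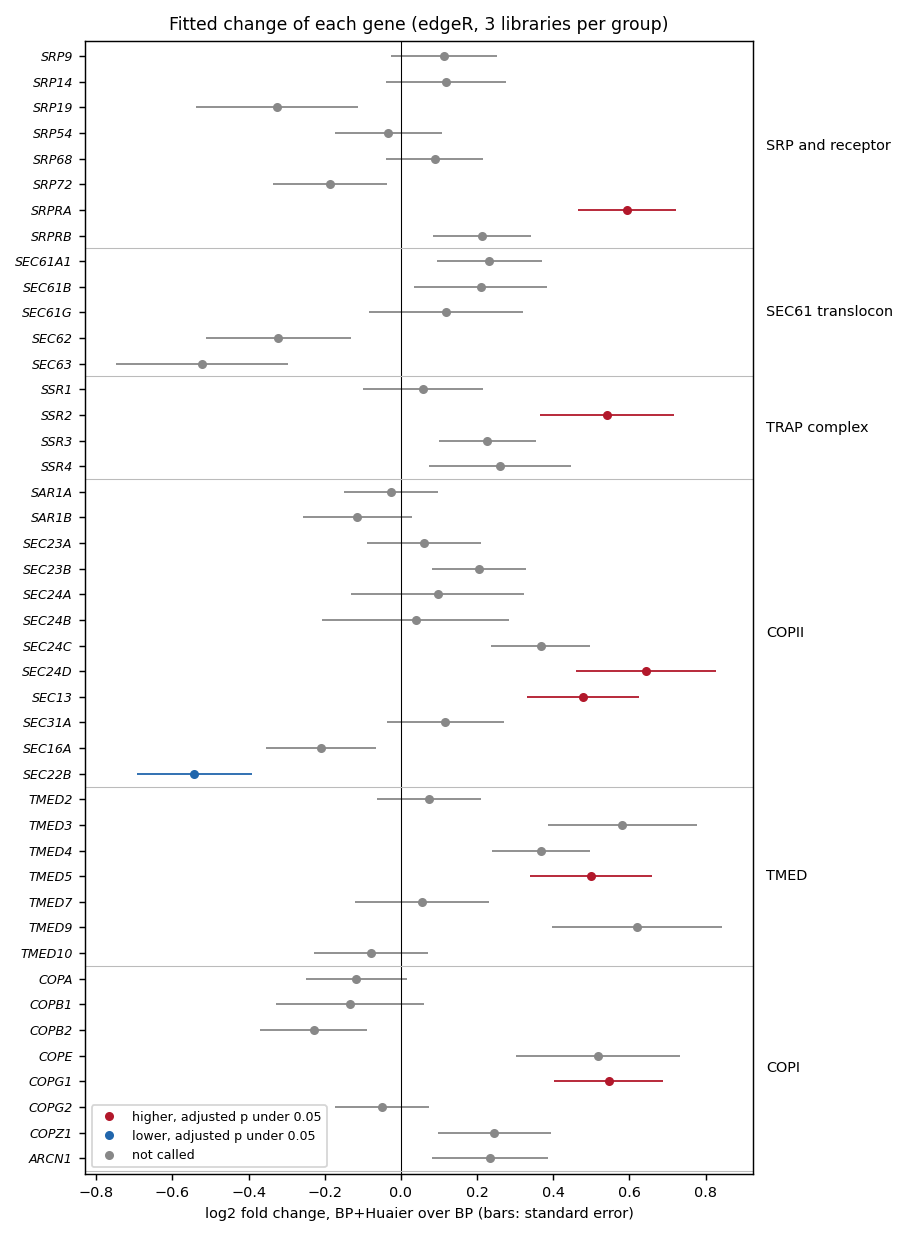
Log2 fold change of BP+Huaier over BP (horizontal axis) for each of the 44 genes (rows, grouped by role), fitted by edgeR with 3 libraries per group. Points are estimates and bars their standard errors, and red and blue mark the 6 genes called higher and the 1 called lower.

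The fitted change was above 0 for 30 of the 44 genes, with a median log2 fold change of 0.11 against −0.02 over all genes, but 19 of the 44 changed sign when libraries were scaled by their total counts alone. That scaling moved the median over all genes to −0.28 and that of the 44 to −0.16. The 6 higher calls were lost with it, while 7% of all genes were called higher and 19.7% lower, 26.7% in all. The calls also depended on single libraries. Leaving out any 1 of BP 1, BP 2, BP 3 or BP+Huaier 2 left 0 of the 44 called by edgeR, and 11.2%, 11.6%, 13.4% and 12.6% of all genes. Without BP+Huaier 1, 4 were higher and 1 lower, against 11.4% and 11.8% of all genes, 23.2% in all. Without BP+Huaier 3, 20 were higher and 7 lower, against 28.8% and 31% of all genes tested, 59.8% in all. With every library in the comparison, 11 of the 44 were higher and 2 lower at an unadjusted p under 0.05, against 21.2% and 22.1% of all genes, 43.3% in all. DESeq2 called 10 higher and 1 lower, against 18.4% and 16.2% of all genes, 34.6% in all. Limma voom with a weight for each group called 8 higher and 2 lower, against 15.3% and 15.2%, 30.5% in all. In edgeR, the size factors of DESeq2 gave 8 and 1 (15.2% and 14.3% of all genes, 29.5% in all). No filter on low counts gave 9 and 2 (9.09% and 9.63%, 18.7% in all). A minimum mean of 5 CPM gave 2 and 1 (14.3% and 12.8%, 27.1% in all). At an adjusted p under 0.01 edgeR called 0 of the 44 and 10.9% of all genes.

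SRP is a particle of 6 proteins on an RNA, and its receptor has an alpha subunit, SRPRA, and a beta subunit, SRPRB, that anchors it in the ER membrane. SRPRA was the gene of this group that passed the test. Its level was 82.8, 80.4 and 78.8 CPM in BP 1 to 3 and 123, 132 and 110 CPM in BP+Huaier 1 to 3. All 3 BP+Huaier libraries were above all BP libraries, with the smallest gap at BP+Huaier 3. The mean rose from 80.7 ± 1.98 to 122 ± 10.7 CPM (SD, n = 3 each), or 0.59 ± 0.13 as a log2 fold change (SE, edgeR adjusted p = 0.0106). Over 14 alternative settings the adjusted p ran from 4.12e-05 to 0.0605, and SRPRA was called in 9 of them. SRPRA (ENSG00000182934.12) lies on the minus strand at chr11:126262938-126269144 of GRCh38.

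SRPRB was also higher in every BP+Huaier library, at 69.0, 70.9 and 61.8 CPM against 60.5, 56.4 and 57.1 CPM in BP, but its log2 fold change of 0.21 ± 0.13 did not pass (edgeR adjusted p = 0.23). The 6 proteins of the particle had log2 fold changes between −0.33 and 0.12, and none of them passed the test (edgeR unadjusted p under 0.05 in none, and DESeq2 called none). SRP9 and SRP14 form the part that slows translation, SRP54 reads the signal sequence, and SRP68 and SRP72 bind as a pair. SRP19, which helps SRP54 join the RNA, had the largest change among them. It stood at 10.9, 10.7 and 9.98 CPM in BP and 5.94, 9.46 and 9.80 CPM in BP+Huaier. The groups did not overlap for SRP19, yet BP+Huaier 2 and 3 lay close to BP and BP+Huaier 1 alone was far below (log2 fold change −0.33 ± 0.21, edgeR adjusted p = 0.268).

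In the SEC61 translocon, SEC61A1 forms the channel with SEC61B and SEC61G, and SEC62 and SEC63 join it, among other things for chains that enter after their synthesis. None of the 5 genes passed the test (edgeR; 1 of 5, SEC63, had an unadjusted p under 0.05, DESeq2 called 0, and limma voom called SEC63 lower). The channel subunits had positive and SEC62 and SEC63 negative estimates, but all 5 were negative when libraries were scaled by their total counts alone. SEC61A1 was at 397, 392 and 410 CPM in BP and 504, 490 and 413 CPM in BP+Huaier, so that BP+Huaier 3 lay just above the highest BP library. Its log2 fold change was 0.23 ± 0.14, SEC61B had 0.21 ± 0.17 and SEC61G 0.12 ± 0.20. SEC63 was at 81.3, 90.4 and 76.2 CPM in BP and 43.8, 47.9 and 80.8 CPM in BP+Huaier. BP+Huaier 1 and 2 were far below BP, and BP+Huaier 3 lay inside the BP range (log2 fold change −0.52 ± 0.23, edgeR adjusted p = 0.11). SEC62 followed the same order, with 84.6, 98.6 and 85.6 CPM in BP and 56.4, 66.1 and 92.6 CPM in BP+Huaier (−0.32 ± 0.19, edgeR adjusted p = 0.223). Without BP+Huaier 3 all 5 were called by edgeR, SEC61A1, SEC61B and SEC61G higher and SEC62 and SEC63 lower (log2 fold change of SEC63 −0.84, adjusted p = 2.64e-05). That fit called 59.8% of all genes.

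The TRAP complex has 4 subunits, SSR1 to SSR4, and SSR2 passed the test. SSR2 (ENSG00000163479.14, chr1:156009048-156020951, minus strand, GRCh38) was at 211, 204 and 202 CPM in BP and 326, 347 and 225 CPM in BP+Huaier. BP+Huaier 3 lay well under BP+Huaier 1 and 2 but above all BP libraries. The mean went from 206 ± 4.60 to 299 ± 65.0 CPM (SD, n = 3 each), or 0.54 ± 0.18 as a log2 fold change (SE, edgeR adjusted p = 0.0455). SSR2 was called in 6 of 14 alternatives, with adjusted p from 8.46e-06 (without BP+Huaier 3) to 0.168 (without BP+Huaier 2). Its exons share 331 bases with a gene on the opposite strand that had 29 counts over all libraries, against 24371 for SSR2. SSR3 was higher in every BP+Huaier library, at 112, 121 and 112 CPM against 96.2, 107 and 92.0 CPM, without passing (0.23 ± 0.13, edgeR adjusted p = 0.2). SSR1 and SSR4 overlapped between groups, with log2 fold changes of 0.06 ± 0.16 and 0.26 ± 0.19. SSR4 was high in BP+Huaier 1 and 2 (273 and 289 CPM) and, at 182 CPM, under every BP library in BP+Huaier 3.

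Among the 12 COPII genes, the cargo adaptor SEC24D and the cage protein SEC13 rose and the SNARE SEC22B fell. SEC24D (ENSG00000150961.15, chr4:118722823-118838683, minus strand, GRCh38) was at 27.7, 31.5 and 28.9 CPM in BP and 34.8, 47.0 and 55.8 CPM in BP+Huaier. All BP+Huaier libraries exceeded all BP libraries, and BP+Huaier 3 was the highest, unlike SRPRA, SSR2, SEC13 and COPG1, where it was the lowest of its group. The mean went from 29.4 ± 1.95 to 45.9 ± 10.5 CPM (SD, n = 3 each), or 0.64 ± 0.18 as a log2 fold change (SE, edgeR adjusted p = 0.0299). Across 14 alternatives the adjusted p of SEC24D ran from 0.00134 (corrected for GC content and length) to 0.222 (scaling by library size), with 7 calls.

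SEC13 also serves in the nuclear pore. It (ENSG00000157020.18, chr3:10293131-10321112, minus strand, GRCh38) was at 97.9, 96.1 and 105 CPM in BP and 159, 139 and 118 CPM in BP+Huaier. The groups did not overlap. The mean rose from 99.5 ± 4.45 to 139 ± 20.7 CPM (SD, n = 3 each), or 0.48 ± 0.15 as a log2 fold change (SE, edgeR adjusted p = 0.0375). Alternatives gave an adjusted p from 0.000174 to 0.184, with 6 calls among 14. Its outer-layer partner SEC31A had a log2 fold change of 0.12 ± 0.15 and did not pass (edgeR adjusted p = 0.587), and the 2 genes were not tested against each other.

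SEC22B, a SNARE that fuses vesicles between the ER and the Golgi, was the only one of the 44 called lower. It (ENSG00000265808.4, chr1:120150898-120176520, minus strand, GRCh38) was at 29.8, 33.2 and 28.2 CPM in BP and 21.7, 18.2 and 22.6 CPM in BP+Huaier. Every BP+Huaier library was below every BP library. The mean went from 30.4 ± 2.57 to 20.9 ± 2.30 CPM (SD, n = 3 each), or −0.54 ± 0.15 as a log2 fold change (SE, edgeR adjusted p = 0.0265). SEC22B has 3 named pseudogene copies with 42 counts in all, 1.62% of its 2594 counts, and the sources used here do not say how reads shared by copies were counted. Its call was lost once each library was corrected for GC content and length (log2 fold change −0.24, edgeR adjusted p = 0.211). It was kept in 8 of 14 alternatives.

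The other 9 COPII genes did not pass. SEC24C came closest, at 80.6, 81.6 and 77.4 CPM in BP and 106, 111 and 92.4 CPM in BP+Huaier, with no overlap (log2 fold change 0.37 ± 0.13, edgeR adjusted p = 0.0598). SEC23B, an inner-coat subunit, was also higher without overlap, at 78.7, 82.1 and 77.0 CPM against 90.5, 96.9 and 86.6 CPM (0.20 ± 0.12, edgeR adjusted p = 0.231). The GTPases SAR1A and SAR1B, the scaffold SEC16A, and SEC23A, SEC24A, SEC24B and SEC31A overlapped between groups, with log2 fold changes from −0.21 to 0.12. Of the 12 COPII genes, SEC24A and SEC24B had the widest spread in BP+Huaier relative to their means. SEC24A was at 54.4, 67.4 and 104 CPM there against 67.1, 78.7 and 65.9 CPM in BP, and SEC24B at 30.5, 35.2 and 58.7 CPM against 37.7, 47.9 and 35.7 CPM. For both, BP+Huaier 1 was below every BP library and BP+Huaier 3 above every BP library. SEC24A and SAR1B lie on opposite strands and share 389 exon bases, 5.34% and 3.60% of their exons, and the sources used here do not say whether counting used strand.

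TMED proteins span the membrane of early secretory vesicles, bind cargo such as lipid-anchored proteins, and contact both coats. TMED5, which belongs to the gamma branch, rose. TMED5 (ENSG00000117500.13, chr1:93149742-93180516, minus strand, GRCh38) was at 49.5, 51.0 and 39.6 CPM in BP and 56.3, 70.6 and 71.0 CPM in BP+Huaier. All BP+Huaier libraries were above all BP libraries, BP+Huaier 1 by the least. The mean went from 46.7 ± 6.20 to 66.0 ± 8.38 CPM (SD, n = 3 each), or 0.50 ± 0.16 as a log2 fold change (SE, edgeR adjusted p = 0.0432). TMED5 was called in 7 of 14 alternatives, with adjusted p from 0.00141 (corrected for GC content and length) to 0.349 (scaling by library size).

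TMED had the highest median log2 fold change of the 6 roles, 0.37 over 7 genes, but 3 of its larger estimates missed the threshold. TMED9 was at 248, 225 and 291 CPM in BP and 490, 420 and 266 CPM in BP+Huaier (0.62 ± 0.22, edgeR adjusted p = 0.0639). TMED3 was at 107, 102 and 114 CPM against 191, 179 and 113 CPM (0.58 ± 0.20, edgeR adjusted p = 0.0523). In both genes BP+Huaier 1 and 2 were far above BP while BP+Huaier 3 lay inside the BP range. TMED4 had no overlap, at 139, 134 and 144 CPM against 184, 189 and 163 CPM (0.37 ± 0.13, edgeR adjusted p = 0.0587). TMED2 and TMED10, the partners that hold p24 complexes together, and TMED7 overlapped between groups, with log2 fold changes from −0.08 to 0.07. Without BP+Huaier 3, TMED3, TMED4 and TMED9 passed (edgeR adjusted p = 8.74e-06, 0.00085 and 1.97e-05), in a fit that called 59.8% of all genes. DESeq2 with every library also called all 3, along with 34.6% of all genes.

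The COPI coat is a 7-subunit complex. COPG1, its gamma subunit, passed the test. COPG1 (ENSG00000181789.14, chr3:129249606-129277773, plus strand, GRCh38) was at 212, 227 and 225 CPM in BP and 358, 335 and 277 CPM in BP+Huaier. The groups did not overlap, with BP+Huaier 3 nearest to BP. The mean went from 221 ± 7.91 to 323 ± 41.8 CPM (SD, n = 3 each), or 0.55 ± 0.14 as a log2 fold change (SE, edgeR adjusted p = 0.0215). Alternatives gave an adjusted p from 2.16e-05 to 0.116, with 8 calls among 14.

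The other 7 COPI genes all overlapped between groups. COPE, the epsilon subunit, was at 152, 144 and 170 CPM in BP and 284, 230 and 152 CPM in BP+Huaier, high in BP+Huaier 1 and 2 alone (0.52 ± 0.22, edgeR adjusted p = 0.0985). COPZ1 (zeta) and ARCN1 (delta) had log2 fold changes of 0.24 ± 0.15 and 0.23 ± 0.15. ARCN1 owed its estimate mostly to BP+Huaier 3, at 192 CPM beside 143 and 156 CPM. COPA (alpha), COPB1 (beta), COPB2 (beta prime) and COPG2, the second gamma subunit, had estimates from −0.23 to −0.05. COPB1 and COPB2 were lowest in BP+Huaier 1 (80.0 and 162 CPM) and inside or above the BP range in BP+Huaier 3 (133 and 205 CPM).

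**Figure D2:**
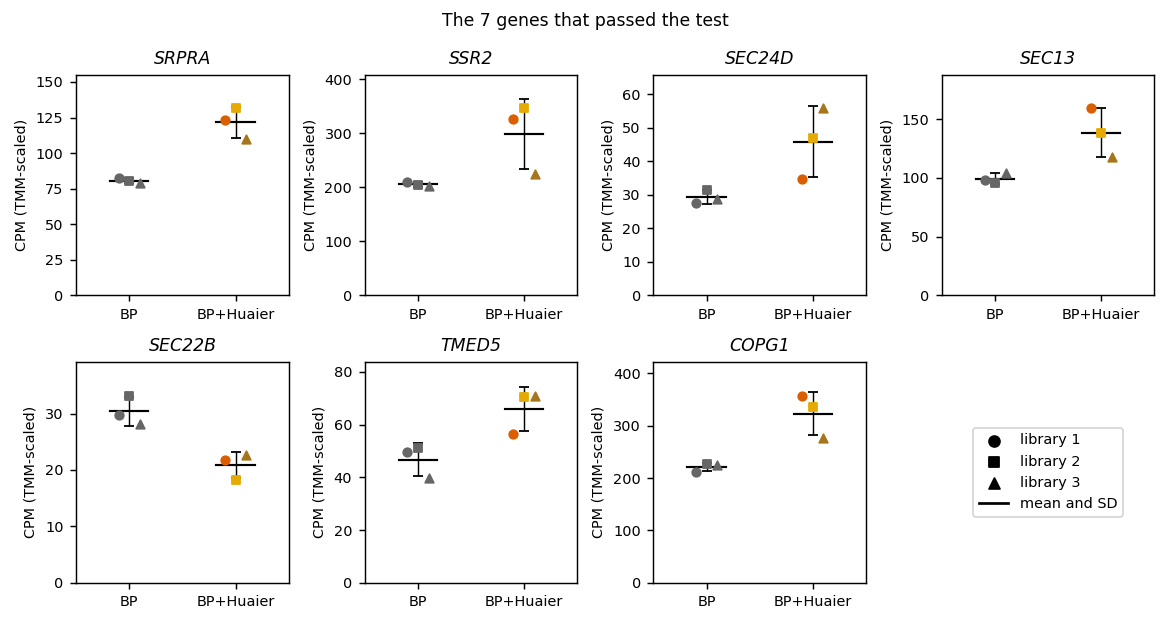
CPM (vertical axes, from 0) of the 7 genes that passed the test, with 1 point per library, the mean and the SD of each group of 3. The groups do not overlap in any panel, and SEC22B alone is lower in BP+Huaier.

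Across the whole set the 3 BP+Huaier libraries did not deviate alike. BP+Huaier 1 lay inside the BP range for 3 of the 44 genes, BP+Huaier 2 for 6 and BP+Huaier 3 for 17. BP+Huaier 1 was above every BP library for 21 genes and below for 20, BP+Huaier 2 for 27 and 11, and BP+Huaier 3 for 20 and 7. For 34 of the 44 genes BP+Huaier 3 fell outside the span of BP+Huaier 1 and 2 in the direction of BP. That count includes genes where it went past BP to the other side. SEC24A, for example, had log2 ratios to the BP mean of −0.37, −0.07 and 0.56 in BP+Huaier 1 to 3, and SEC24B −0.41, −0.20 and 0.54. The median log2 ratio of the 44 genes to the BP mean was −0.0022, 0.19 and 0.09 in these libraries.

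**Figure D3:**
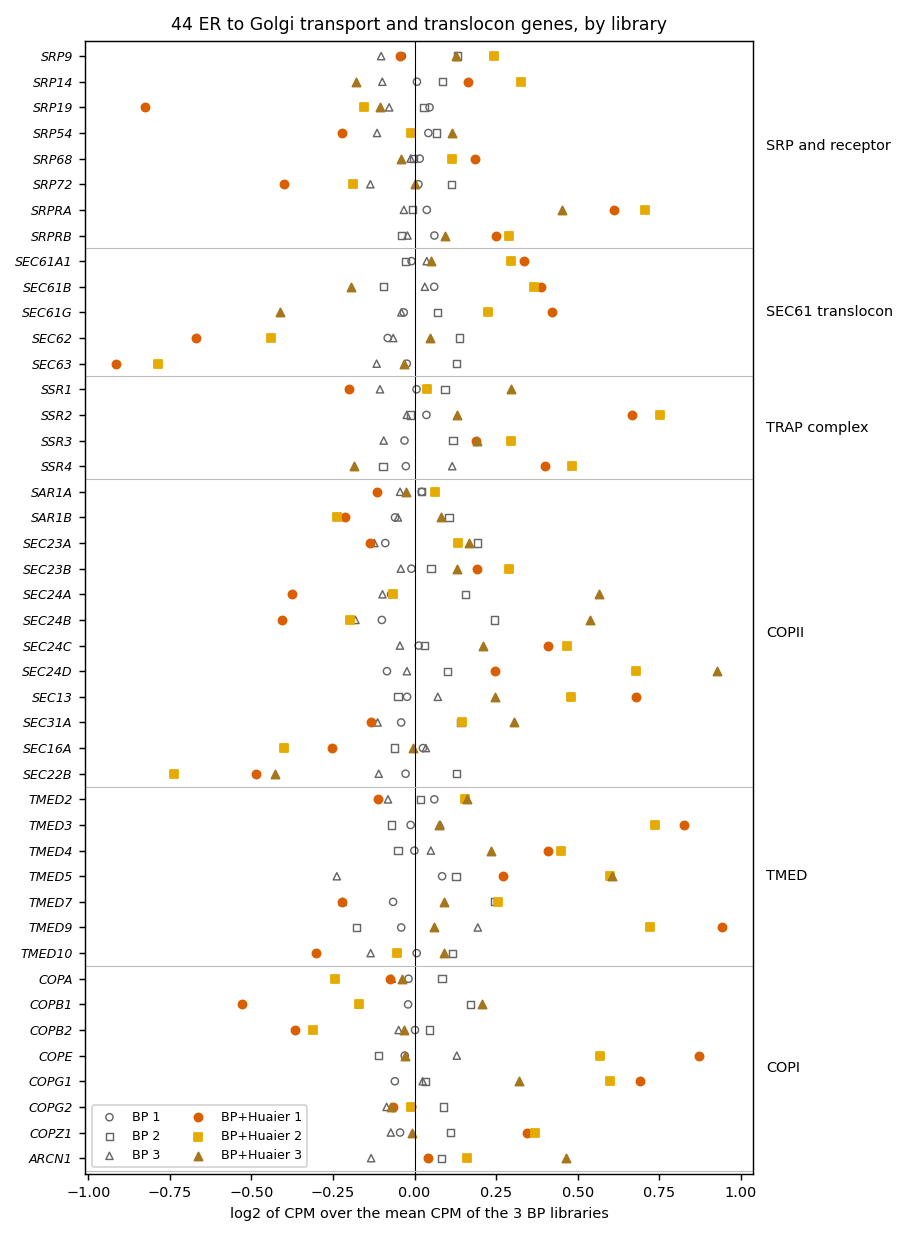
Log2 of each library's CPM over the mean of the 3 BP libraries (horizontal axis) for each gene (rows). Open symbols are BP libraries and filled symbols BP+Huaier libraries, and BP+Huaier 3 (triangles) sits inside the BP range for 17 genes.

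The GC content of the longest transcript, 36.1% to 62.2% with a median of 43.5%, moved with these ratios. Over the 44 genes, Pearson's r between the GC content and the log2 ratio to the BP mean was 0.63 in the first BP+Huaier library, 0.48 in the second and −0.03 in the third. The BP libraries, each set against the other BP libraries, gave r of 0.10, −0.75 and 0.77. These are descriptions across genes that share the same libraries. SEC63, SEC62 and COPB2, with negative estimates, have a GC content of 39.5%, 36.7% and 37.2%, while COPE, TMED9 and COPG1, with positive ones, have 62.2%, 57.0% and 52.8%. SEC16A, with a negative estimate at 56.5%, and TMED5, called higher at 37.4%, went the other way. After each library was corrected for GC content and length, edgeR called 13 of the 44 higher and 0 lower. Of all genes tested in that fit, 18.2% were higher and 19.9% lower, 38.1% in all. The median log2 fold change was then 0.218 in the 44 genes and −0.015 over all genes. SEC22B was lost, and SRP9, SSR1, SSR3, SEC23A, TMED3, TMED4 and ARCN1 were gained. The 6 higher calls were kept, and the part of GC content in the other results was not tested.

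**Figure D4:**
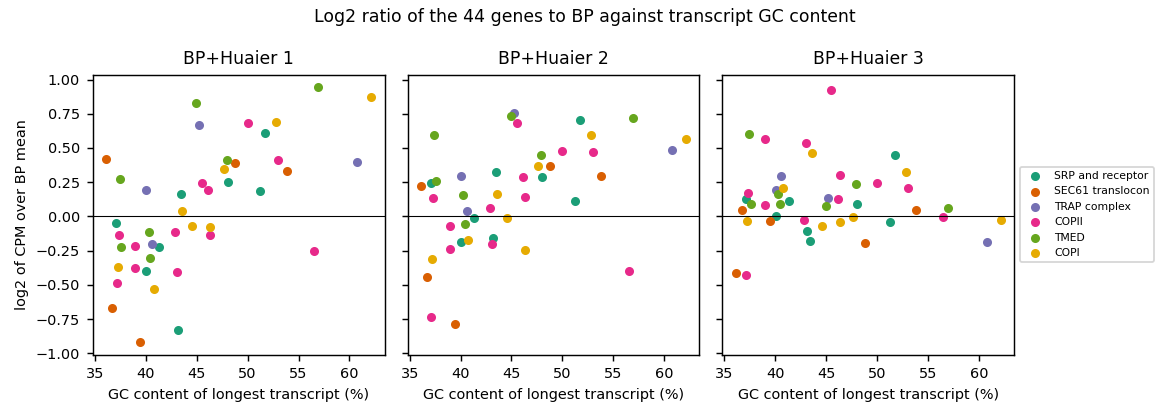
Log2 of CPM over the BP mean (vertical axis) against the GC content of the longest transcript in percent (horizontal axis) for the 44 genes, 1 panel per BP+Huaier library, coloured by role. The points rise with GC content in BP+Huaier 1 and 2 (r of 0.63 and 0.48) and not in BP+Huaier 3 (r of −0.03).

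Levels of different genes were compared as TPM, counts divided by the length of all annotated exons and scaled to a common total, which understates genes with long unused exons. In BP the highest means were SEC61A1 with 369 ± 0.438 TPM, SRP14 with 367 ± 32.1, SRP9 with 314 ± 33.7 and TMED9 with 311 ± 33.3 TPM (SD, n = 3 each), and the last 3 overlapped each other, with SEC61A1 inside the range of SRP14. The lowest were SRP19 with 4.30 ± 0.291 TPM, over 10517 exon bases, SEC24D with 12.7 ± 1.05 and SEC22B with 14.4 ± 1.55 TPM, the last 2 overlapping. Genes of 1 complex differed widely in level: SEC61A1 stood above SEC61B (193 ± 8.94 TPM) and SEC61G (147 ± 9.55 TPM). SEC62 and SEC63 were lower at 48.6 ± 5.15 and 41.3 ± 4.53 TPM. In COPI, COPE (232 ± 14.05 TPM), COPZ1 (227 ± 20.7) and COPG1 (215 ± 8.93) overlapped at the top, and COPB2 was lowest at 48.0 ± 2.72 TPM.

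The summed TPM of the roles was lower in BP+Huaier than in BP for all 6. It was higher for all 6 when TMM-scaled CPM, which are not divided by length, were summed instead. The sums were 1050 ± 85.6 and 906 ± 116 TPM for SRP and its receptor (BP and BP+Huaier, SD, n = 3 each), 799 ± 15.2 and 691 ± 24.0 for SEC61, and 465 ± 7.11 and 453 ± 20.4 for TRAP. They were 631 ± 40.9 and 553 ± 124 TPM for COPII, 1002 ± 17.2 and 972 ± 68.3 for TMED, and 1208 ± 63.2 and 1134 ± 107 for COPI. These sums of TPM and of CPM differ both in scaling and in the weight given to each gene by its length. They gave opposite signs, and no direction is given for the machinery as a whole.

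**Figure D5:**
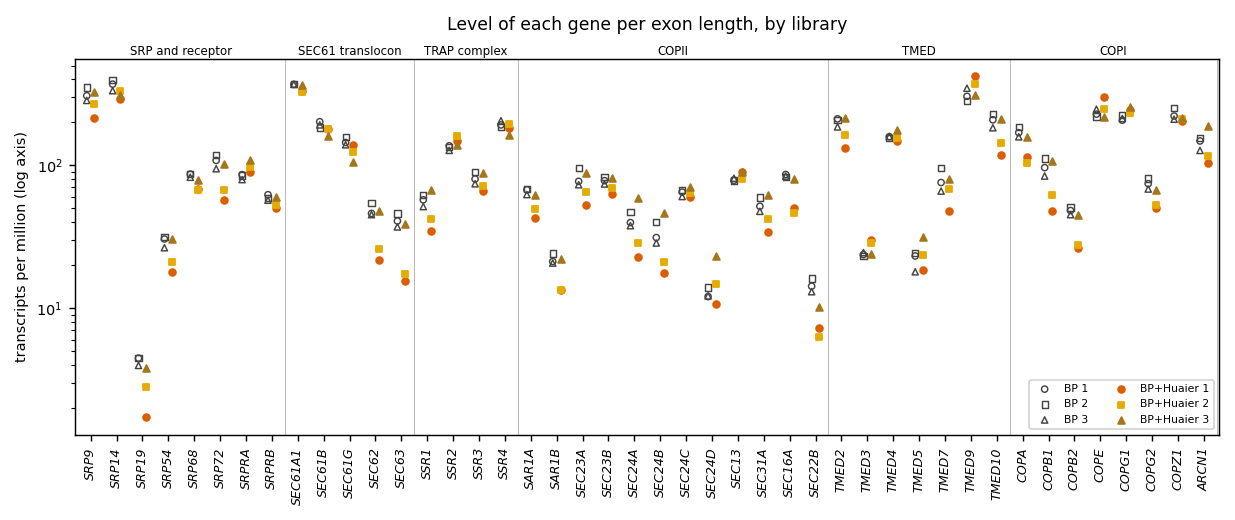
TPM of each gene in each library (vertical log axis), with genes on the horizontal axis grouped by role, open symbols for BP and filled symbols for BP+Huaier. SEC61A1, SRP14, SRP9 and TMED9 are at the top and SRP19 is lowest, at 4.30 TPM on average in BP.

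A ratio of 2 genes within 1 library does not depend on its scaling, and 9 pairs of paralogs were compared in this way. With 3 libraries against 3, the exact permutation test cannot go below p = 0.1. For the pairs that reached it, this became 0.3 after Benjamini-Hochberg adjustment over all 9 pairs. COPG1 over COPG2 had a log2 TPM ratio of 1.48, 1.48 and 1.64 in BP and 2.29, 2.14 and 1.92 in BP+Huaier, higher in 3 of 3 libraries (difference 0.59, exact permutation p = 0.1, two-sided, adjusted p = 0.3). SEC24A over SEC24D went from 1.72, 1.76 and 1.63 to 1.09, 0.96 and 1.35, lower in 3 of 3 (difference −0.57, exact permutation p = 0.1, adjusted p = 0.3). SEC24B over SEC24D went from 1.37, 1.53 and 1.23 to 0.74, 0.51 and 1.00, also lower in 3 of 3 (difference −0.63, exact permutation p = 0.1, adjusted p = 0.3). The ratios over SEC24D share that gene, and all pairs among SEC24A to SEC24D reuse the same genes, so they are not independent. SEC24A and SEC24B are one pair of close adaptor paralogs and SEC24C and SEC24D the other, with different cargo preferences. SEC24A over SEC24B was 0.35, 0.23 and 0.40 in BP and 0.35, 0.45 and 0.35 in BP+Huaier. SEC24C over SEC24D was 2.43, 2.26 and 2.31 in BP and 2.50, 2.12 and 1.62 in BP+Huaier. SEC24A and SEC24B over SEC24C, SEC23A over SEC23B and SAR1A over SAR1B overlapped between groups as well (differences −0.32, −0.37, −0.14 and 0.09). For these 6 overlapping pairs the exact permutation p was 0.4 to 0.6.

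The start regions of 40 of the 44 genes were found in RefSeq (GRCh38.p14). SEC24D, SRPRA, TMED4 and TMED9 have no entry in the table used. The 250 bases before the most upstream start that this RefSeq table gives were searched on both strands for letters linked to ER stress and to CREB3, ATF6 and XBP1 family factors. TGACGTGG, the core of an unfolded protein response element, is in 5 of the 40 (12.5%), against 0.685% of all promoters of the same length and 0.766% of those of genes tested. The 5 windows are shown because the 5 genes share these letters (capitals, on either strand), which overlap the CCACG searched below. The deposited table's exons (of any gene) can reach further upstream, and by them the windows of SEC62, SEC24A and COPB2 are exonic over all 30 bases, that of COPB1 over 22 and that of SRP19 over 6.

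SRP19, chr5:112861164-112861193, plus strand: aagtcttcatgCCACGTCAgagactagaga
SEC62, chr3:169966777-169966806, plus strand: ccccctcctcgctCCACGTCAgagggaacc
SEC24A, chr5:134648595-134648624, plus strand: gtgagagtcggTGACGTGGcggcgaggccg
COPB1, chr11:14499841-14499870, minus strand: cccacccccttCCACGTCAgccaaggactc
COPB2, chr3:139389825-139389854, minus strand: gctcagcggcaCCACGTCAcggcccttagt

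None of the 5 genes with TGACGTGG passed the test (edgeR adjusted p from 0.223 to 0.767, unadjusted p under 0.05 in none, DESeq2 none). Their log2 fold changes were −0.33 for SRP19, −0.32 for SEC62, 0.10 for SEC24A, −0.13 for COPB1 and −0.23 for COPB2. The full ER stress element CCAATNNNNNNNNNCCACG and its relative ATTGGNCCACG are in 0 of the 40 (0.0769% and 0.0549% of all promoters), and the cyclic AMP element TGACGTCA in 0 (1.75% of all promoters). The shorter CCACG is in 30 of 40 (75%, against 33.2% of all promoters and 44.6% of those of genes tested) and CCAAT in 15 of 40 (37.5%, against 33% and 34.8%). A match describes letters and no binding was measured. SSR2, one of the called genes, holds CCACG close to ATTGG, the reverse complement of CCAAT, in the window below (capitals). TMED5 also holds 1 CCAAT and 1 CCACG.

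SSR2, chr1:156020972-156021001, minus strand: caaggcATTGGgcggaacaCCACGgtttcc

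The whole 250 bases are shown for COPG1 and SEC13, which rose, and SEC22B, which fell, as their windows hold no annotated exon. Capitals mark CCAAT and CCACG on either strand. COPG1 holds 1 CCACG, SEC13 holds 2, and SEC22B holds 1 CCAAT. The GC content of these windows is 63.2%, 68.8% and 52.0%.

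COPG1, chr3:129249356-129249605, plus strand: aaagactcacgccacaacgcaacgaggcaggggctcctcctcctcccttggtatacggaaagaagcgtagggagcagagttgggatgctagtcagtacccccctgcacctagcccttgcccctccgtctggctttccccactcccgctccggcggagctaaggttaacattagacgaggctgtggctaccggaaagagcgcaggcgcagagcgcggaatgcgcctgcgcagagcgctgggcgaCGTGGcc
SEC13, chr3:10321113-10321362, minus strand: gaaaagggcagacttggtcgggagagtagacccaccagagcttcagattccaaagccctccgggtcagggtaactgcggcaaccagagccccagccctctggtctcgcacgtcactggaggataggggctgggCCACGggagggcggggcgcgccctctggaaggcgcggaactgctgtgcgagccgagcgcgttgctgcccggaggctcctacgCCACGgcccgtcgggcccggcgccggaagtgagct
SEC22B, chr1:120176521-120176770, minus strand: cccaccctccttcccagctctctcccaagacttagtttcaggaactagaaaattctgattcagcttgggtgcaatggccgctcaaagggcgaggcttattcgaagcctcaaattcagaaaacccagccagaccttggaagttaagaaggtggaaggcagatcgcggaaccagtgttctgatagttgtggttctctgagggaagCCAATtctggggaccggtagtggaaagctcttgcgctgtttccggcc

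Beyond the 44 genes, lists of 111 partners in the same pathway were followed, of which 109 were tested. In them 18 genes were higher and 5 lower (21.1% called, against 29.3% of all genes tested), with a median log2 fold change of 0.19. Of 8 transcription factors of the CREB3, ATF6 and XBP1 families, 3 were higher and 0 lower (14.4% and 15% of all genes tested). Some of these factors are known to raise secretory genes when secretory load or ER stress is high. Their activity was not measured here. CREB3L3 was at 9.39, 8.83 and 8.50 CPM in BP and 46.1, 69.7 and 54.2 CPM in BP+Huaier, a 6.35-fold rise (log2 fold change 2.67 ± 0.19, edgeR adjusted p = 4.2e-04). XBP1 was at 90.4, 92.4 and 88.1 CPM and 256, 244 and 173 CPM, a 2.48-fold rise (1.31 ± 0.17, edgeR adjusted p = 0.00169). In both genes every BP+Huaier library was far above BP, and both were called in all 14 alternatives. CREB3L2 rose 1.43-fold (edgeR adjusted p = 0.036).

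Among the 15 tethers and SNAREs, which dock and fuse vesicles, 2 were higher and 1 lower, against 14.4% and 15% of all genes tested. The Golgi tether GOLGA2 was at 74.0, 75.5 and 77.0 CPM in BP and 148, 145 and 138 CPM in BP+Huaier, a tight 1.90-fold rise (0.93 ± 0.12, edgeR adjusted p = 0.00169). BNIP1, an ER SNARE of the retrograde route, was at 17.2, 19.1 and 19.96 CPM and 37.9, 50.2 and 34.1 CPM, a 2.17-fold rise (1.12 ± 0.18, edgeR adjusted p = 0.00329). Both were called in all 14 alternatives. USO1, the tether that partners with GOLGA2, fell by a factor of 1.46 (edgeR adjusted p = 0.0392).

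The regulators of the COPI coat had 4 of 10 higher and 0 lower. For comparison with the counts here, 14.4% of all genes tested were higher and 15% lower, 29.3% in all. ARF1, the GTPase that starts the coat, rose 1.85-fold from 504 ± 18.5 to 933 ± 229 CPM (SD, n = 3 each, edgeR adjusted p = 0.0115), and ARF4, a related GTPase, rose 1.65-fold (0.00929). Among 15 cargo and retrieval receptors, the KDEL receptors KDELR1 and KDELR2, which return ER residents, rose 1.48-fold and 1.43-fold (edgeR adjusted p = 0.042 and 0.0328), and ERGIC2 fell by a factor of 1.49 (0.0162). TFG, which organises COPII exit sites, rose 1.40-fold (edgeR adjusted p = 0.034) as the 1 called of 9 COPII accessory genes. In the TRAPP tethering complex 1 of 14 genes was called, TRAPPC4, which rose 1.54-fold (edgeR adjusted p = 0.0128).

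At the translocon, RPN1 and DAD1, subunits of the enzyme that attaches sugar chains, rose 1.499-fold and 1.41-fold (edgeR adjusted p = 0.0305 and 0.0236). TRAM2, a translocon partner, fell by a factor of 1.43 (edgeR adjusted p = 0.0326). These were 3 calls among 18 genes tested, where 29.3% of all genes tested were called. None of the 10 genes of the EMC, an insertase for membrane proteins, passed in edgeR. At an unadjusted p under 0.05 in edgeR 3 were higher, against 21.2% of all genes tested. DESeq2 called 2 higher, against 18.4% of all genes. Of the 7 genes for insertion of tail-anchored proteins, GET4 and BAG6 rose 1.73-fold and 1.54-fold (edgeR adjusted p = 0.0433 and 0.0256), and GET1 fell by a factor of 1.45 (0.0322). Of the 3 other TMED genes, TMED1 rose 1.73-fold (edgeR adjusted p = 0.0337) and TMED6 was called lower at under 5 CPM. Apart from CREB3L3, XBP1, GOLGA2 and BNIP1, each partner called here at a mean of 5 CPM or more lost its call in 2 to 9 of the 14 alternatives.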

How the data were processed

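The authors deposited whole-number counts per gene, not normalized, for 6 libraries. Reads went through fastp (version 0.20.0), HISAT2 (version 2.1.0) and featureCounts (version 1.6.1) with GRCh38, per the submitters' processing notes, and no source used here states the annotation, strand or multi-mapping settings. Of 60648 genes with complete lines, 44 pseudoautosomal duplicates (Y chromosome) without counts were dropped, and 1 gene with broken lines was not used. Symbols from a table of gene names matched 99.8% of IDs. Columns were mapped by sample titles.

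Counts were tested in R 4.3.3 with edgeR 4.0.16 (filterByExpr, TMM, robust quasi-likelihood, group as the only term, Benjamini-Hochberg over 15022 genes, called at an adjusted p under 0.05). The common biological coefficient of variation was 18.1%. TPM was computed from deposited counts and exon lengths. The alternatives were DESeq2 size factors, library size alone, DESeq2 1.42.0, limma 3.58.1 voom, other filters on low counts, the replicate number as a block, a spline correction for GC content and length in each library, each library left out, and an adjusted p under 0.01. The steps were tested on simulated counts of 14663 genes for this comparison. There edgeR recovered 56.2% of 96 genes changed 2-fold and 94.8% of 97 changed 4-fold, with 2.01% of calls false. The simulated counts held no trend with GC content and no library that stood apart, and far fewer genes were changed. These rates therefore need not hold for the real libraries. Both planted changes were also larger than any among the 44 genes. The rule that chose the 44 genes uses names and no measured value, but it, the lists and the tests were set with earlier results of these data known. Values in every library were given for called members without overlap and for the paralog pairs, and from each pathway list up to 3 were named, by size of change among called genes with a mean of 5 CPM or more (1 such gene is not reported here, though it enters the counts). Members that did not pass but are shown by library, and TMED6, were chosen after their values were seen. Sequences are from RefSeq, GRCh38.p14, and plots used Python 3.11.15 with matplotlib 3.10.9.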

Additional observations from a re-analysis of the deposited data

How the results depend on the processing

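The 6 higher and 1 lower calls among the 44 genes became 0 higher with library-size scaling, 10 higher with DESeq2, 2 lower with voom, 2 lower with no filter, 2 higher with at least 5 CPM, 13 higher and 0 lower after correction for GC content and length, and 0 of either at an adjusted p under 0.01. Leaving out each library gave 0 to 20 higher and 0 to 7 lower. Over all genes, 2160 higher and 2246 lower calls became 1051 higher with library-size scaling. With at least 5 CPM they became 1357 lower, with 10590 genes tested in place of 15022. They became 826 and 810 at an adjusted p under 0.01, and 810 to 4452 higher and 909 to 4793 lower with each library left out. No called gene among the 44 changed sign in a fit that called it. The log2 ratios of summed TMM-scaled CPM, not divided by length, were 0.11 for SRP, 0.0825 for SEC61, 0.31 for TRAP, 0.31 for TMED and 0.16 for COPI. The COPII sum was also higher, and its ratio is not given here. With each library left out, the log2 ratio differed by 0.50 to 0.68 for COPG1 over COPG2, −0.68 to −0.49 for SEC24A over SEC24D and −0.75 to −0.51 for SEC24B over SEC24D. The cause of these shifts was not tested.

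With the replicate number as a block, 1 of the 44 genes was called higher and 0 lower. Of all genes, 1357 were then higher (9.03%) and 1742 lower (11.6%). Libraries with the same number did not deviate together (r of 0.01, −0.08 and −0.33 over 15022 genes), and the numbers were not taken to pair them. Libraries with different numbers gave r from −0.328 to 0.328, so this check cannot exclude a weaker pairing. What depth limits among these genes, whose group means were 8.40 CPM or more, was not tested.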
